A study of Mus musculus with 15 samples.

Results

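The chromatin change that accompanies the last step of secretory differentiation in the mouse intestine, from secretory progenitors of the crypt (Sec-Pro) to goblet cells of the villus (GOB), was followed through the histone mark H3K4me2. Overlapping peaks of 3 H3K4me2 lists, 2 of Sec-Pro and 1 of GOB, were merged into 103908 regions. A region was called gained where GOB had a peak and neither Sec-Pro list did (26011 regions, 25.0%). It was called lost where both Sec-Pro lists had a peak and GOB had none (7039 regions, 6.77%), and kept where all 3 lists had one (36346 regions, 35.0%). A further 9772 regions had a peak in GOB and 1 Sec-Pro list and 24740 in 1 Sec-Pro list only, and these were counted apart. The 12 peak lists of the study held 778471 peaks in all.

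Sec-Pro replicate 1 came from crypts after deletion of Rbpj, the DNA-binding partner of Notch, and replicate 2 from crypts of mice given the Notch pathway inhibitor DBZ. GOB came from villi lacking Rbpj, so GOB and Sec-Pro replicate 1 share that deletion and replicate 2 does not. Stage therefore cannot be told apart from the place in the tissue, and for replicate 2 also from genotype. Lists used for comparison were H3K4me2 of stem cells (ISC, sorted for GFP from Lgr5-eGFP-Cre mice), of enterocyte progenitors (Ent-Pro, 2 libraries) and of enterocytes (ENT), the last 2 groups from Atoh1-/- mice, with H3K27ac and DNase I hypersensitive sites (DHS) of Sec-Pro and Ent-Pro and ATOH1 binding in Sec-Pro, mapped with an antibody against FLAG. All animals were C57BL/6. No sorting step is described for Sec-Pro, and which of its preparations gave the H3K27ac, DHS and ATOH1 lists is not stated. The labels also do not say whether libraries of a group came from separate animals, and the cell types were not checked against marker genes here. The 3 H3K4me2 lists held between 63293 and 92279 peaks, the reads behind them are unknown, and the cells may carry the mark where a list shows no peak.

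H3K4me2 marks promoters and enhancers, including enhancers that are primed but not active. H3K27ac is found at those that are active, and a DHS shows DNA that is open to binding proteins. When Notch signalling is blocked, crypt progenitors express ATOH1, a transcription factor that all secretory cells of the gut depend on, and goblet cells, the mucus-producing cells, are the most abundant of these.

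Kept regions were long and high-scoring, and gained and lost regions were short. Regions merge overlapping peaks and take the highest score, so width and score can rise with the number of lists that share a region. Regions of a single list had similar median widths, 220 bp for GOB, 226 bp for DBZ and 245 bp for Rbpj. The median width was 1471 bp for kept, 561 bp for lost and 220 bp for gained regions, and kept regions made up 74.2% of the length covered by all regions (69.9 Mb, against 7.27 Mb gained and 4.58 Mb lost). The authors' score ranks peaks within a list. In the GOB list, 13.9% of the gained regions lay in the upper 50% by score and 0 in the top 10%, whereas 82.9% of the kept regions lay in the upper 50%. Lost regions ranked low in the Rbpj-deleted list (9.52% in its upper 50%) and near the middle of the DBZ list (45.5%). Of regions with a single Sec-Pro list, 22813 were marked in DBZ-treated and 1927 in Rbpj-deleted crypts, and 8387 regions joined DBZ and GOB against 1385 that joined Rbpj and GOB. The DBZ list is the longer, with 92279 peaks against 63293 in the Rbpj-deleted list. Its shortest peak is 146 bp, as in GOB, against 200 bp. The part of these list differences in the counts was not tested. The number of lost regions rose to 31799 without the Rbpj-deleted library and to 12102 without the DBZ library, while gained regions numbered 28209 and 37886.

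**Figure D1:**
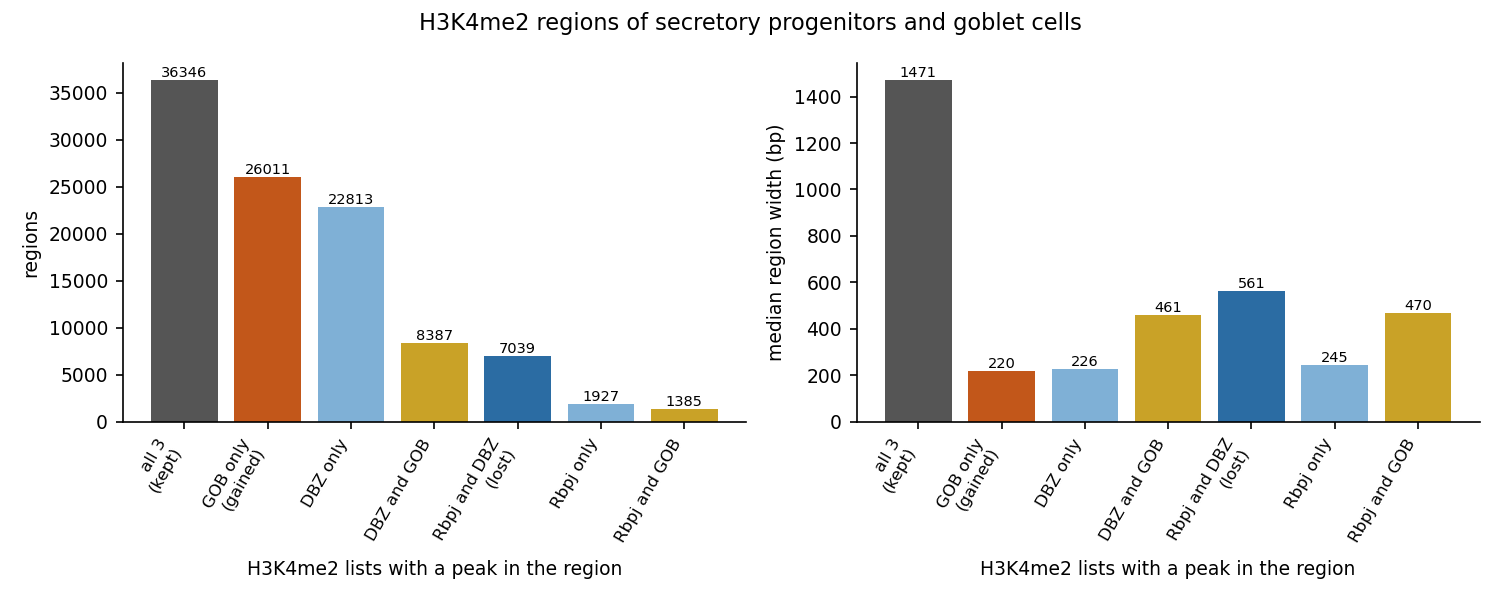
Regions by the combination of H3K4me2 lists with a peak (left, number of regions) and their median width in bp (right). The 36346 kept regions are the widest at 1471 bp, and the 26011 regions found in GOB only are the narrowest at 220 bp. Width can rise with the number of lists merged in a region.

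The median gained region lay 1277 bp from the nearest Sec-Pro peak, and 7.90% lay within 100 bp, 15.4% within 200 bp and 45.3% within 1 kb of one. With peaks within 1 kb merged, 8826 regions were gained. The median lost region lay 4004 bp from the nearest GOB peak, with 5.84% within 100 bp. On the other side of the limit, 256 kept regions (0.704%) had GOB and Sec-Pro peaks that shared at most 100 bp, against a median of 942 bp shared in all kept regions. Of the gained regions, 32.5% lay within 1 kb of a kept region and 25.0% beyond 10 kb. For lost regions these shares were 25.6% and 41.4%. Distances were not measured for the other classes, so no share over all regions stands beside these.

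Single regions show the range of the gained class, all positions being in build mm9 and counted from 1. The gained region with the highest GOB score (101), on chromosome 4 at 124414118 to 124416496, was 2379 bp wide and also had peaks in ENT (score 52.3), in 1 Ent-Pro library and in Sec-Pro H3K27ac (score 8.69). The next, on chromosome 2 at 92590451 to 92592570 (GOB score 92.1), was shared with ENT alone (score 23.6). The regions on chromosome 7 at 134193724 to 134196154 (GOB score 87.9) and chromosome 14 at 60465378 to 60466852 (82.1) had no peak in any of the other 9 lists. The region on chromosome 14 at 58518667 to 58519269 (82.9) had H3K27ac in both Sec-Pro and Ent-Pro. Among gained regions bound by ATOH1 in progenitors, the highest-scoring was a 334 bp region on chromosome 3 at 5860536 to 5860869 (GOB score 75.9). It held a Sec-Pro DHS with a score of 199 and an ATOH1 peak with a score of 18.6, but no Sec-Pro H3K27ac. An Ent-Pro DHS and an ENT peak (score 32.2) lay there too. Those that followed lay on chromosome 9 at 58346937 to 58347452 and chromosome 4 at 133572797 to 133574503. They also combined ATOH1 with a DHS in both Sec-Pro and Ent-Pro and were shared with ENT.

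The highest-ranking lost regions looked different from these. They lay on chromosome 5 at 3892715 to 3893569 (scores 78.1 in Rbpj-deleted and 103 in DBZ-treated Sec-Pro), chromosome 5 at 4192712 to 4193677 (50.1 and 92.3), chromosome 2 at 84490978 to 84491677 (47.7 and 110), chromosome 15 at 65575977 to 65577282 (47.1 and 95.7) and chromosome 4 at 116331650 to 116332762 (51.6 and 62.7). Each of these 5 regions had H3K4me2 in ISC, both Ent-Pro libraries and ENT and H3K27ac in both progenitors, and none had a DHS or an ATOH1 peak. The H3K27ac score of Sec-Pro at the chromosome 2 region was 295. GOB was thus the only H3K4me2 list without a peak there. The widest lost region, on the X chromosome at 100669959 to 100674215 (4257 bp), was marked in Sec-Pro and Ent-Pro libraries and in no other list.

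**Figure D2:**
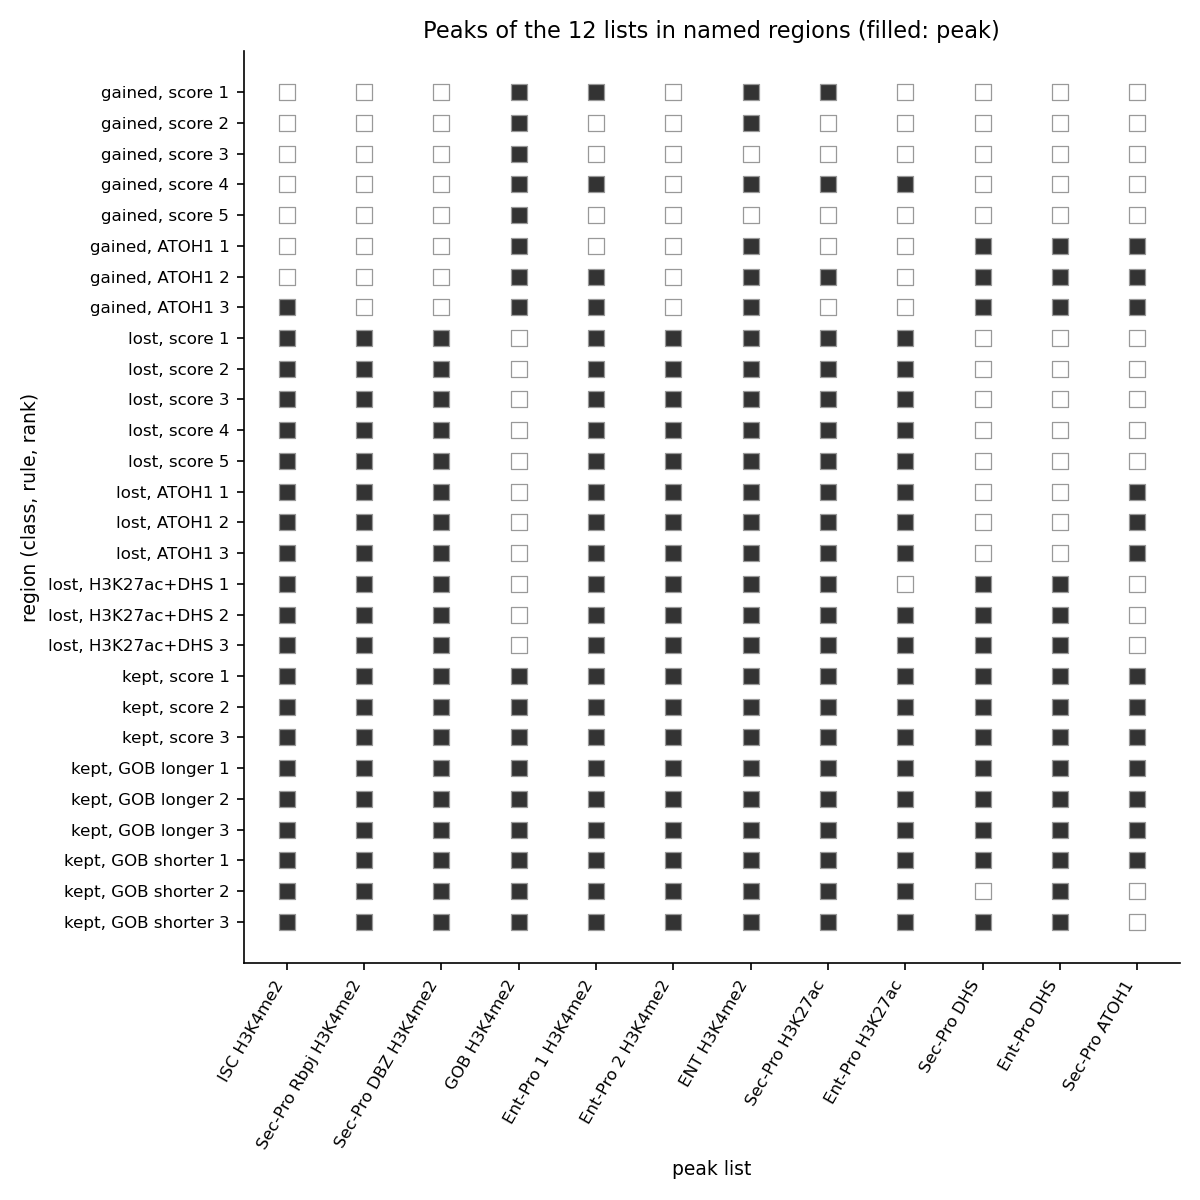
Named regions (rows, by class, selection rule and rank) against the 12 peak lists (columns), a filled square marking a peak. The 5 top lost regions have peaks in every H3K4me2 list but GOB and none for DHS or ATOH1, and 2 of the 5 top gained regions have a peak in GOB alone.

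H3K27ac of the progenitors was more frequent at lost than at gained regions. A Sec-Pro H3K27ac peak lay in 59.7% of lost regions (95% interval 58.5 to 60.8) and 24.7% of gained regions (24.2 to 25.3), against 78.0% of kept regions and 48.0% of all regions. Intervals here and below cover counting error between these lists only, since regions are not replicates, and no p-value is given. The difference, gained minus lost, was -34.9 percentage points (-36.2 to -33.7), and -27.9 when regions were compared at equal width. It was -6.54 without the Rbpj-deleted library, and -28.2 without the DBZ library. A lost region needs a peak in 2 lists and a gained region in 1, and regions of 1 Sec-Pro list only, with a median width of 229 bp, had H3K27ac in 26.9%.

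Open chromatin and ATOH1 had the opposite order at low levels. A Sec-Pro DHS lay in 4.65% of gained regions (4.40 to 4.91) and 2.20% of lost regions (1.88 to 2.57), against 18.8% of all and 46.4% of kept regions. An ATOH1 peak lay in 2.89% of gained (2.69 to 3.10) and 1.69% of lost regions (1.41 to 2.02), against 8.4% of all and 18.2% of kept regions. The differences, gained minus lost, were 2.45 points for DHS (2.0 to 2.86) and 1.20 points for ATOH1 (0.814 to 1.54), and they grew to 4.59 and 2.59 points at equal width. Without the DBZ library they were 3.71 and 3.25 points. The DHS difference turned to -3.49 points (-4.01 to -2.99) where peaks counted as shared only if at least 50% was covered, and the ATOH1 difference kept its direction under each of the 12 alternatives (0.640 to 3.25 points).

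**Figure D3:**
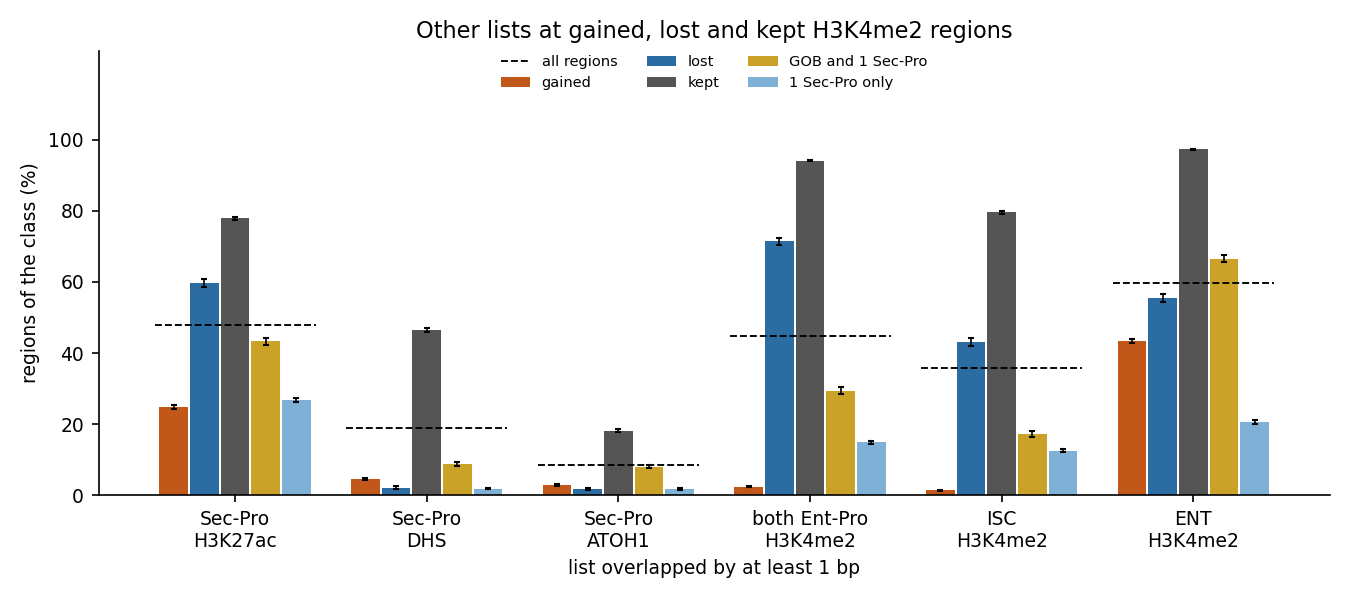
Share of regions of each class (y axis, %) with a peak of another list (x axis), with Wilson 95% intervals as bars and the share over all 103908 regions as dashed lines. Lost regions are rich in H3K27ac (59.7%) and progenitor H3K4me2 but have DHS in 2.20%, whereas 46.4% of kept regions hold a DHS.

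The gap between kept and gained regions was smaller at equal width. Kept minus gained, it went from 41.8 to 9.21 points for DHS (8.19 to 10.2) and from 15.3 to 1.88 points for ATOH1 (1.12 to 2.63).

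DHS were also scarcer at lost than at kept regions once width was taken into account. This was not particular to lost regions. Regions of 1 Sec-Pro list only had a DHS in 1.90% and an ATOH1 peak in 1.79%. At widths of 500 to 1000 bp, a DHS lay in 2.07% of them and 2.01% of lost regions. Among regions of equal width, kept regions held a Sec-Pro DHS more often than lost ones by 19.9 points (19.2 to 20.6) and an ATOH1 peak more often by 6.41 points (5.89 to 6.92). Leaving out the Rbpj-deleted or the DBZ library gave 12.3 and 11.6 points for DHS. The difference in H3K27ac was 1.65 points (0.213 to 3.09), and it turned to -1.44 points without the DBZ library and was 12 points without the Rbpj-deleted one. Of the lost regions, 58.1% had H3K27ac with neither DHS nor ATOH1. This share was 37.1% for kept and 23.6% for gained regions. With 1 Sec-Pro list it was 38.3% where GOB had a peak and 26.3% where GOB had none. Both H3K27ac and a DHS lay in 54 of 7039 lost regions, against 13191 of 36346 kept and 150 of 26011 gained regions. They also lay in 175 of 9772 regions with GOB and 1 Sec-Pro list and 56 of 24740 of 1 Sec-Pro list only. Low counts were thus not particular to lost regions. Examples of lost regions with both lay on chromosome 2 at 84081700 to 84082430 and chromosome 10 at 67817781 to 67819552. In the 100 lost regions ranked highest by the lower of their 2 Sec-Pro score percentiles, 90 had H3K27ac and 1 had a DHS. All of the 100 kept regions ranked highest by the lowest of their percentiles over the 3 lists held a DHS. These kept regions were ranked by another measure, were wider (median 3216.5 bp against 1177 bp) and were not matched by width.

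**Figure D4:**
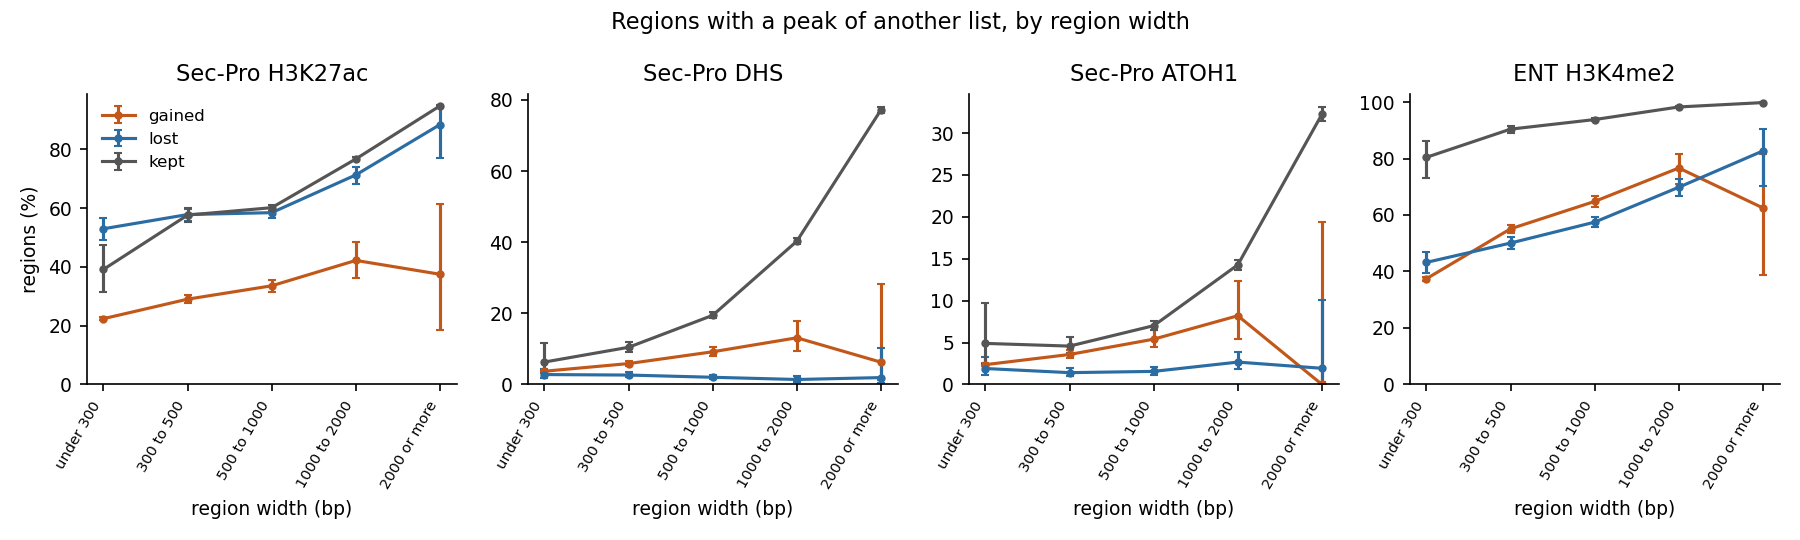
Share of gained, lost and kept regions (y axis, %, separate scales) with a Sec-Pro H3K27ac, DHS or ATOH1 peak or an ENT H3K4me2 peak, by region width, with Wilson 95% intervals. DHS and ATOH1 climb with width in kept regions, while lost regions stay low in every width class.

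Gained regions fell into sets with different progenitor chromatin, and the split by ENT was not particular to them. ENT shared 43.4% of them (42.8 to 44.0, against 59.8% of all regions), and 39.6% had no peak in any other list, against 17.9% of all regions and 29.9% of the regions of 1 Sec-Pro list only. Of the 11288 gained regions shared with ENT, 39.8% carried Sec-Pro H3K27ac, compared with 13.2% of the 14723 regions without an ENT peak, a difference of 26.5 points (25.5 to 27.6). DHS and ATOH1 went the other way. A DHS lay in 3.46% of the shared and 5.56% of the other regions (-2.11 points, -2.61 to -1.60). An ATOH1 peak lay in 1.89% and 3.65% (-1.77 points, -2.16 to -1.37), although the shared regions were the wider (253 against 202 bp in the median). The 3 differences kept their signs under all 9 alternatives (22.2 to 31.5, -3.11 to -0.549 and -3.09 to -1.10 points), and the DHS difference was -1.0 without the DBZ library. In regions of 1 Sec-Pro list only, H3K27ac lay in 49.0% with and 21.2% without an ENT peak. There, DHS lay in 1.58% and 1.99% and ATOH1 in 1.04% and 1.99%. Regions with GOB and 1 Sec-Pro list had 51.5% and 27.3% for H3K27ac, 8.52% and 9.29% for DHS and 5.94% and 12.4% for ATOH1. At kept regions DHS (47.3% and 16.2%) and ATOH1 (18.3% and 13.9%) were instead more frequent with an ENT peak.

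Position relative to kept regions gave a similar division. H3K27ac fell from 32.9% of gained regions within 1 kb of a kept region to 23.4% at 1 to 10 kb and 16.5% beyond 10 kb. DHS rose over the same classes from 2.84% to 4.02% and 8.05%, and ATOH1 from 1.81% to 3.45% and 3.32%. Far minus near, the differences were -16.3 points for H3K27ac (-17.7 to -15.0), 5.21 points for DHS (4.47 to 5.97) and 1.51 points for ATOH1 (0.996 to 2.04), at near-equal median widths of 214 and 222 bp. Without the DBZ library the ATOH1 difference was 2.63 points. H3K27ac differed by -5.92 points where the 3 lists were reduced by score to equal covered length. At lost regions H3K27ac was also lowest beyond 10 kb (50.7%, against 65.6% within 1 kb and 66.3% at 1 to 10 kb). DHS did not rise there, with 2.77%, 1.81% and 2.16% from near to far, and ATOH1 was at 1.33%, 1.85% and 1.78%. The other classes were not split by distance.

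**Figure D5:**
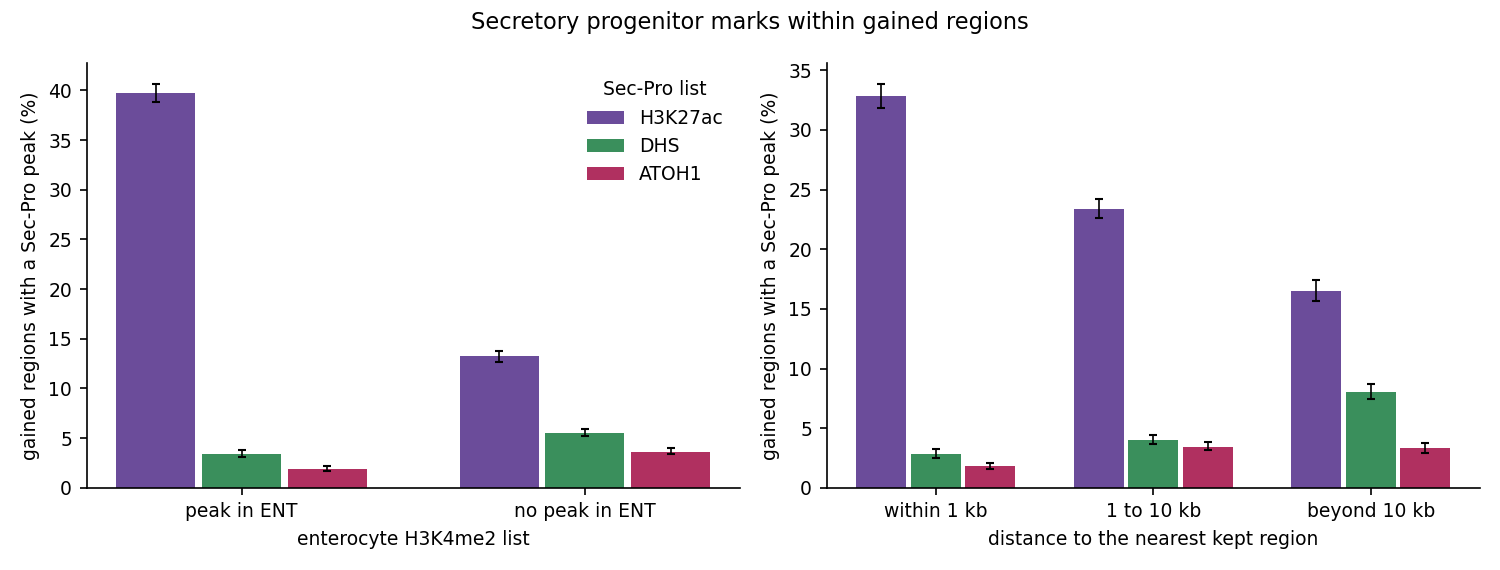
Share of gained regions (y axis, %) with a Sec-Pro H3K27ac, DHS or ATOH1 peak, split by an ENT peak (left) and by distance to the nearest kept region (right), with Wilson 95% intervals. H3K27ac is highest in gained regions shared with ENT (39.8%) or close to kept ones (32.9%), and DHS is highest beyond 10 kb (8.05%).

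H3K27ac and DHS rarely met in a gained region. Only 12.4% of the 1209 gained regions with a Sec-Pro DHS carried H3K27ac, against 25.3% of those without (-12.9 points, -14.8 to -10.9). In kept regions the share was 78.2% with and 77.8% without a DHS. The other classes resembled gained regions in this. For regions of 1 Sec-Pro list only the shares were 11.9% with and 27.2% without a DHS. They were 20.4% and 45.6% for regions with GOB and 1 Sec-Pro list, and 34.8% and 60.2% for lost regions. ATOH1, in contrast, was more frequent at gained regions with a DHS (10.8% against 2.50%, 8.25 points, 6.61 to 10.1). Every other class had the same order, with 9.55% against 1.64% in regions of 1 Sec-Pro list only. In lost regions it was 8.39% against 1.54%, and in kept regions 27.9% against 9.85%. Of the 751 ATOH1-bound gained regions 17.3% held a DHS, compared with 71.0% of the 6618 ATOH1-bound kept regions. These differed in median width (262 and 2406.5 bp), and the difference of 53.7 points was 10.3 points at equal width (4.16 to 16.3). In 69.4% of gained regions none of the 3 Sec-Pro lists of H3K27ac, DHS and ATOH1 had a peak, against 44.9% of all regions and 70.2% of the regions of 1 Sec-Pro list only.

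Gained regions of higher GOB score were more often shared. From the lowest to the highest quartile of score, ENT peaks rose from 29.6% to 62.5% and Sec-Pro H3K27ac from 18.5% to 32.7%, and width rose alongside, from a median of 182 to 338 bp. ATOH1 was at 2.45% and 3.61% in these quartiles. Of the top 100, 82 were shared with ENT, 47 had H3K27ac and 3 had ATOH1.

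H3K4me2 of earlier and absorptive cells divided the classes further. ISC marked 43.2% of lost and 1.48% of gained regions (35.7% of all), a difference of -41.7 points (-42.8 to -40.5) that was -18.3 without the Rbpj-deleted and -27.1 without the DBZ library. Both Ent-Pro libraries marked 71.4% of lost and 2.48% of gained regions (44.7% of all), and at least 1 of them 95.1% and 14.8% (64.4% of all). Only 2.87% of lost regions had no other H3K4me2 list (23.5% of all). ENT marked 55.5% of the lost and 43.4% of the gained regions (gained minus lost -12.1 points, -13.4 to -10.8). That order turned at equal width, where gained exceeded lost by 3.86 points (2.28 to 5.45), and without the Rbpj-deleted library, where the excess was 18.8 points. Lost regions marked in ISC, both Ent-Pro and ENT alike numbered 1624 (23.1%, against 29.4% of all regions). A further 1877 (26.7%, against 5.06% of all) had both Ent-Pro libraries but not ENT.

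Marks of Ent-Pro offered a comparison with progenitors of the other lineage. At gained regions H3K27ac was more frequent in Sec-Pro than in Ent-Pro (24.7% against 21.8%, the latter against 50.6% of all regions), with a paired difference of 2.98 points (2.54 to 3.43). Over all regions the same difference was -2.66 points, at kept regions -3.92 and at lost regions -6.19 (-7.12 to -5.27). The gained difference shrank to 0.261 points (-0.125 to 0.647) without the DBZ library. With H3K27ac lists cut to equal length it was 1.29 points (0.854 to 1.73). DHS of Sec-Pro was less frequent than that of Ent-Pro at gained (4.65% against 5.48%, with 22.1% of all regions, -0.830 points, -1.03 to -0.636) and lost regions (2.20% against 4.74%, -2.54 points). Over all regions this difference was -3.25 points and at kept regions -6.38 points. With DHS lists cut to equal length the gained difference was 0.0231 points (-0.161 to 0.207).

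Kept regions also differed in extent between the lists. GOB covered less of the region than either Sec-Pro library in 16663 kept regions (45.8%) and more than either in 10856 (29.9%). The median covered lengths were 1060 bp in Rbpj-deleted Sec-Pro, 1288 bp in DBZ-treated Sec-Pro and 1068 bp in GOB. The median log2 ratio of GOB length was 0.00902 to the Rbpj-deleted and -0.213 to the DBZ library. These medians differed more between the Sec-Pro libraries than between GOB and the Rbpj-deleted one. The shares alone therefore do not show a change with stage. In 689 kept regions (1.9%) GOB covered at least 2 times the length of both Sec-Pro libraries, and in 3064 (8.43%) at most 1/2 of both. Being chosen by these lengths, the lengthened and shortened sets were not matched for progenitor H3K4me2. The Rbpj-deleted and DBZ lists covered 328 and 351 bp of lengthened and 905 and 1129.5 bp of shortened regions in the median. For GOB these medians were 1151 and 270 bp. At near-equal total widths (1194 and 1203 bp in the median), the lengthened regions held a Sec-Pro DHS in 28.0% and the shortened ones in 10.4%, a difference of 17.6 points (14.2 to 21.3). ATOH1 lay in 14.4% and 5.48% (8.89 points, 6.31 to 11.8), whereas ISC marked 28.6% and 79.0% (-50.5 points, -54.0 to -46.7). Over all kept regions the shares were 46.4% for DHS, 18.2% for ATOH1 and 79.6% for ISC. Measured against the DBZ library alone, the ATOH1 difference was 4.78 points and that of DHS 11.8 points, and against the Rbpj-deleted library alone 14.9 and 19.0 points, with -26.5 points for ISC. H3K27ac differed by -7.44 points (-11.2 to -3.90), and by 0.370 points against the DBZ library alone.

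The kept region that GOB lengthened most lay on chromosome 2 at 157242408 to 157260810, with 18301 bp covered in GOB and 11717 and 11468 bp in the Rbpj-deleted and DBZ lists. On chromosome 12 at 103520433 to 103527207, GOB covered 6775 bp, against 2135 and 2200 bp. The largest shortening was on chromosome 6 at 94613673 to 94652555, where 35227 and 38534 bp in Sec-Pro stood against 21745 bp in GOB, there broken into 27 peaks. On chromosome 14 at 80399675 to 80413613, 9092 and 13939 bp in Sec-Pro were reduced to a single GOB peak of 461 bp. The kept region with the highest value of its lowest score percentile over the 3 lists, on the X chromosome at 166434700 to 166436045, had the highest GOB score of all (321) and a peak in each of the other 9 lists.

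The same classes were formed for the absorptive lineage from Ent-Pro and ENT, which share no library with the secretory lists. Of GOB peaks 29.9% were gained (29.6 to 30.2), and of ENT peaks 25.8% (25.5 to 26.1), a difference of 4.16 points (3.74 to 4.58) that turned to -8.38 without Ent-Pro replicate 1 and reached 17.8 without the DBZ library. It was 5.34 points with lists of equal number of peaks and 10.9 points with lists of equal covered length. Of the regions marked in both progenitor libraries, 16.2% were lost in the secretory and 10.6% in the absorptive lineage. This difference of 5.61 points (5.16 to 6.06) was 0.166 without Ent-Pro replicate 1 and -14.7 without Ent-Pro replicate 2, and 30.4 and 12.9 without the Rbpj-deleted and DBZ libraries. With lists of equal number of peaks it was 4.09 points and with lists of equal covered length 1.27 points (0.775 to 1.77).

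The ATOH1 peaks of Sec-Pro were also set against the classes of the absorptive lineage. They lay in 2.89% of regions gained in GOB and 1.20% of regions gained in ENT (8.36% of all regions of the absorptive lists), a difference of 1.69 points (1.44 to 1.94) that ranged from 0.919 without Ent-Pro replicate 1 to 3.03 without the DBZ library. They lay in 1.69% of regions lost in GOB and 4.90% of regions lost in ENT (-3.21 points, -3.91 to -2.56), with -1.44 and -1.77 points without Ent-Pro replicates 1 and 2. The DHS of the lineage's own progenitors lay in 2.20% of lost secretory and 7.14% of lost absorptive regions, the latter against 25.0% of all absorptive regions (-4.93 points, -5.75 to -4.16). Without Ent-Pro replicate 1 it was -3.09 points. At gained regions the DHS shares were 4.65% and 2.80% (1.84 points, 1.51 to 2.18), and the difference turned to -0.769 points without Ent-Pro replicate 1. The other mature cell type retained lost regions unequally. ENT had a peak in 55.5% of the regions lost in GOB, whereas GOB had one in 24.5% of the regions lost in ENT, against 60.1% of all absorptive regions. That difference of 31.0 points (29.3 to 32.6) was 3.70 points without the Rbpj-deleted library, and it was positive under all 13 alternatives. H3K27ac of the own progenitors differed little, by -0.801 points at gained (24.7% and 25.5%) and -1.46 points at lost regions (59.7% and 61.1%, with 56.2% of all absorptive regions), and both values changed sign when single libraries were left out.

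Windows of 100 kb were ranked by the number of gained or lost regions. The window with most gained regions, on chromosome 7 at 86400001 to 86500000, held 35 among 53 regions of any class, of which 18 were shared with ENT and none had a DHS. Another on chromosome 6 at 37300001 to 37400000 held 31 among 43, of which 25 were shared with ENT and 14 had Sec-Pro H3K27ac. The window with most lost regions, on chromosome 1 at 67100001 to 67200000, held 14 among 30, and all 14 had Sec-Pro H3K27ac. In the window on the X chromosome at 47900001 to 48000000, 11 of 23 regions were lost, none of them marked in ENT or ISC.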

How the data were processed

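The authors deposited 1 peak list per library with chromosome, start, end, name and an unnamed score per peak. The score served only to rank peaks within a list and to describe named regions. The submitters' processing notes name MACS2, Bowtie 0.12.7, CASAVA 1.7 and build mm9 without parameters. Of 15 samples 12 have a list, and the 3 input samples were not analysed here. The shortest peak was 146 bp in the GOB, DBZ, ISC and ENT lists and 200 bp in the Rbpj-deleted list.

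Merging and overlaps used pandas 2.3.3 and NumPy 2.4.6 under Python 3.11.15, and a mark was counted where at least 1 bp overlapped. Shares have Wilson, their differences Newcombe and paired differences Wald 95% intervals. Values at equal width are Mantel-Haenszel differences over 5 width classes, divided at 300, 500, 1000 and 2000 bp. The counting was tested on simulated data. Read depth is unknown, so the intervals cover counting error only.

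Regions were named by rule: the 5 gained regions of highest GOB score, the 5 lost and 3 kept regions of highest lowest-percentile score, the 3 highest with given marks, the 3 widest, the 3 with the largest change in covered length and the 3 windows of 100 kb with most regions. The text gives a part of these, chosen after their values were seen. The members and lists were chosen with earlier results of these data known. The only gene tables at hand belong to another build, so no gene was named and no sequence shown, and the planned gene lists were not analysed here.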

Additional observations from a re-analysis of the deposited data

Results flagged for a closer look

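A pair of results of the secretory lineage differed from the same contrast in the absorptive lineage. The share of the mature list that was gained was higher for goblet cells than for enterocytes by 4.16 percentage points, and the share of progenitor regions that was lost was higher by 5.61 percentage points. Both intervals left out 0, but each value rests on 1 mature library per lineage, and both changed sign when an Ent-Pro library was left out. The 2 Ent-Pro lists differ in their shortest peak, as the Sec-Pro lists do, and with the lists of shorter shortest peak alone the differences were 4.75 and 10.04 points. With lists of equal number of peaks the differences were 5.34 points (gained) and 4.09 points (lost), and with lists of equal covered length 10.9 and 1.27 points.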

How the results depend on the processing

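Over the tested differences, 299 values under alternatives kept direction and side of 0, 12 passed and 8 fell short of it anew, and 21 changed sign. The cause was not tested except where fewer peaks or libraries enter by construction. Numbers of gained regions were 3619 in the upper 50% by score, 15122 and 13048 with lists of equal number and equal length, 8826 with peaks within 1 kb merged and 14229 beyond 1 kb from Sec-Pro peaks. Numbers of lost regions were 581, 3795 at equal length, 4165 merged, 15897 at an overlap of 50% and 12102 to 31799 with 1 Sec-Pro library. DHS, gained minus lost, was -3.49 at an overlap of 50%. ENT, gained minus lost, was 3.86 at equal width and -2.40 to 18.8 with 1 Sec-Pro library. The paired difference at gained regions was 0.0231 for DHS with mark lists of equal length and 0.261 to 3.12 for H3K27ac with 1 Sec-Pro library. Leaving out 1 progenitor library gave -8.38 to 17.8 for the gained share, -14.7 to 30.4 for the lost share, -6.20 to 6.18 for the other mature list, -0.769 to 2.53 for own DHS and -8.28 to 3.92 for own H3K27ac at gained regions, and -27.0 to 19.2 for own H3K27ac at lost regions, all goblet minus enterocyte lineage. In the same contrast, the other mature list at gained regions gave 1.41 at an overlap of 50%, -1.56 in the upper 50%, -5.33 merged, -3.34 beyond 1 kb, -9.54 at equal covered length, 3.90 with the lists of shorter shortest peak and 1.95 at equal width. Own DHS at gained regions gave 0.385 at equal covered length. Own H3K27ac at gained regions gave -0.770 on autosomes, -0.550 with the lists of shorter shortest peak and -0.373 at equal width, and at lost regions -4.40 at an overlap of 50%, 0.589 in the upper 50%, -5.27 with equal list length, -13.8 at equal covered length, -6.28 with the lists of shorter shortest peak and -2.61 at equal width. ATOH1 at lost regions gave -2.08 in the upper 50%. H3K27ac, kept minus lost at equal width, gave 1.32 with equal list length, -2.70 merged, -11.0 in the upper 50% and -1.44 to 12 with 1 Sec-Pro library, and at lengthened minus shortened kept regions -11.7 to 0.370. Named regions kept their class in 300 checks and not in 24. The last 3 contrasts, the splits of gained regions, the marks compared between lineages, kept minus gained at equal width, mark lists of equal length and lists of shorter shortest peak were added after seeing the data. Alternatives of distance give no kept regions, and merging within 1 kb leaves none near them. No paired analysis was possible because GOB has 1 library and Sec-Pro replicate numbers name different treatments.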

Other observations

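Seen from the Sec-Pro lists, 54.0% of ATOH1 peaks lay in kept, 4.84% in gained and 0.787% in lost regions, and 33.1% lay outside all 3 H3K4me2 lists. For DHS these shares were 57.4%, 3.65%, 0.491% and 35.5%. The median percentile of score in the ATOH1 list was 60.4 at gained, 65.6 at lost and 59.1 at kept regions, 72.3 at regions with GOB and 1 Sec-Pro list and 72.7 at regions of 1 Sec-Pro list only. At gained, lost and kept regions the median percentiles were 41.3, 46.9 and 75.5 for DHS scores and 47.3, 56.2 and 79.4 for H3K27ac scores. Regions with GOB and 1 Sec-Pro list held ATOH1 in 8.10% and H3K27ac in 43.4%, between the values of gained and kept regions. For ATOH1 this order depended on width. In each width class from 300 bp up, ATOH1 was more frequent in them than in kept regions. The shares were 9.68% and 7.01% at 500 to 1000 bp and 18.6% and 14.3% at 1000 to 2000 bp. Under 300 bp they were 3.56% and 4.90%.

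Gained regions made up between 30.0% and 38.1% of GOB regions on each of the 19 autosomes and 16.3% (168 of 1031) on the X chromosome. All 26 regions on the Y chromosome were gained, and neither the Sec-Pro nor the Ent-Pro lists hold a peak there, whereas ENT holds 28 and ISC 6. The labels do not state the sex of the animals, and its part in these values was not tested. On autosomes alone, 25817 regions were gained and 6867 lost.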
